A study of Mus musculus with 12 samples.

Results

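The genes described here encode 4 S100 proteins (S100a4, S100a6, S100a10 and S100a11), 3 annexins (Anxa1, Anxa2 and Anxa3) and 2 galectins (Lgals1 and Lgals3). They were selected by symbol, and all 9 were found among the 25124 genes listed in each of 2 expression tables. The data are bulk poly(A) RNA-seq of whole retinas from wild-type (WT) mice, in 12 libraries forming 6 groups of 2. In 4 groups the tissue came from 3-month-old (3mo) or 18-month-old (18mo) animals, and the eye had either undergone 1 elevation of the intraocular pressure (IOP), lasting 1 h at 30 mmHg, or was the untreated contralateral eye. The group names are thus 3mo control and 3mo IOP for the young animals, 18mo control and 18mo IOP for the aged ones, and the retinas were taken on day 2. In the other two groups, 4xIOP and 4xIOP control, the same elevation was given 4 times at intervals of 2 weeks, starting at 3 months of age, and retinas were taken on day 2 after the last. All controls are fellow eyes of animals that received the elevation, so no group comes from animals left without it. The labels do not tie same-numbered libraries to 1 animal, and the p-values measure the spread between 2 labelled replicates.

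S100 proteins are small calcium-binding proteins with EF-hand motifs that mostly work as dimers and dock onto partner proteins when calcium rises. Annexins bind acidic phospholipids in a calcium-dependent way and organise membrane domains, exocytosis and membrane repair. The families meet in fixed complexes: S100a10 joins Anxa2 in a heterotetramer that binds plasminogen at the cell surface, and S100a11 is the classical partner of Anxa1. Galectins are lectins that recognise beta-galactoside sugars on glycoproteins. In the eye these genes are known from glia, infiltrating leukocytes, vessels and the epithelia of lens and cornea, so whole-retina levels add up several sources. In bulk tissue, more cells of a type and more RNA per cell cannot be told apart.

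By the mm10 transcripts used for counting, all 4 S100 genes lie on chromosome 3. S100a4 (NM_011311, plus strand) spans chr3:90603770-90606045 and S100a6 (NM_011313, plus strand) follows it at chr3:90612894-90614414. S100a11 (NM_016740, plus strand) lies at chr3:93520496-93526288 and S100a10 (NM_009112, plus strand) at chr3:93555117-93564645. The annexins are on 3 chromosomes, with Anxa1 (NM_010730, minus strand) at chr19:20373434-20390671, Anxa2 (NM_007585, plus strand) at chr9:69453683-69491785 and Anxa3 (NM_013470, plus strand) at chr5:96793385-96845968. Lgals1 (NM_008495, plus strand) is at chr15:78926725-78930465 and Lgals3 (NM_010705, plus strand) at chr14:47373860-47386167. The spliced transcripts are short: 494 bases for S100a4, 499 for S100a11, 645 for S100a10, 714 for S100a6 and 794 for Lgals1, with the other members between 1359 and 1582 bases. Thus 5 of 9 members are under 1000 bases, compared with 10.8% of the genes tested in the single-IOP table, where the median was 2772 bases.

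RefSeq promoter windows (GRCm38.p6, 250 bases before to 50 after the transcript start) were at hand for 6 of 9 members, namely S100a4, S100a6, S100a11, Anxa1, Anxa2 and Lgals3. They were searched on both strands for the letters of 7 motifs. The AP-1 letters TGAGTCA, bound by Fos and Jun proteins, occurred in S100a11 and Anxa2, against 5.17% of 27025 promoter windows. These 2 windows are shown because they are the members with that match, with the 150 bases before the transcript start in lower case and the matches in capitals. The S100a11 stretch is chr3:93520346-93520495 and the Anxa2 stretch is chr9:69453533-69453682, both on the plus strand.
S100a11: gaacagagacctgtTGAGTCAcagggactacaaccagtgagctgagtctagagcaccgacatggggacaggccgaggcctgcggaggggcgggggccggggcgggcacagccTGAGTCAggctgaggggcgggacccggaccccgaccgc
Anxa2: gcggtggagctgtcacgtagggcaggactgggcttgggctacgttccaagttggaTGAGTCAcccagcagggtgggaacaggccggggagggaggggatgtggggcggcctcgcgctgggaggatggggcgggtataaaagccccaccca

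S100a11 held the match at 2 places, starting 136 and 38 bases before the start, and Anxa2 at 1 place, 95 bases before it. The NF-kB letters GGGANNNNCC were in S100a4, S100a11, Lgals3 and Anxa1, against 20.5% of all windows. The E-box CACGTG was in S100a6 and S100a11, against 7.24%. The STAT letters TTCNNNGAA (8.47% of windows), the interferon element GAAANNGAAA (3.49%), the CRE letters TGACGTCA (1.88%) and the TEAD letters ACATTCCA (1.34%) were in none of the 6. No match in a member overlapped that of another motif, and a match of letters is a description of the window only.

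The libraries held between 39766247 and 59455050 tags, of which between 44.2% and 71.5% lay in exons. Values are FPKM (tags per kilobase of transcript, scaled to the tags of the library). Levels of genes of unlike length are compared with the limit on transcript length given below. The summed level of 6 rod photoreceptor markers was between 3084 and 16830 FPKM in every library. The libraries differed in how short and long transcripts were represented. The median FPKM of transcripts under 1000 bases over that of transcripts from 4000 bases was 3.26 and 8.14 in 3mo control and 6.15 and 5.31 in 3mo IOP libraries. It was between 1.75 and 2.05 in the 4 libraries of 18mo animals and between 2.01 and 2.87 in the repeated-IOP series. The levels of most members moved with this ratio over the single-IOP libraries, and each age comparison of the members is also given with the trend of each library with transcript length removed. Age values of relatives and partners are given without that removal. Both tables were normalized separately, so levels in the 4xIOP series are set beside the others without a test.

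**Figure D1:**
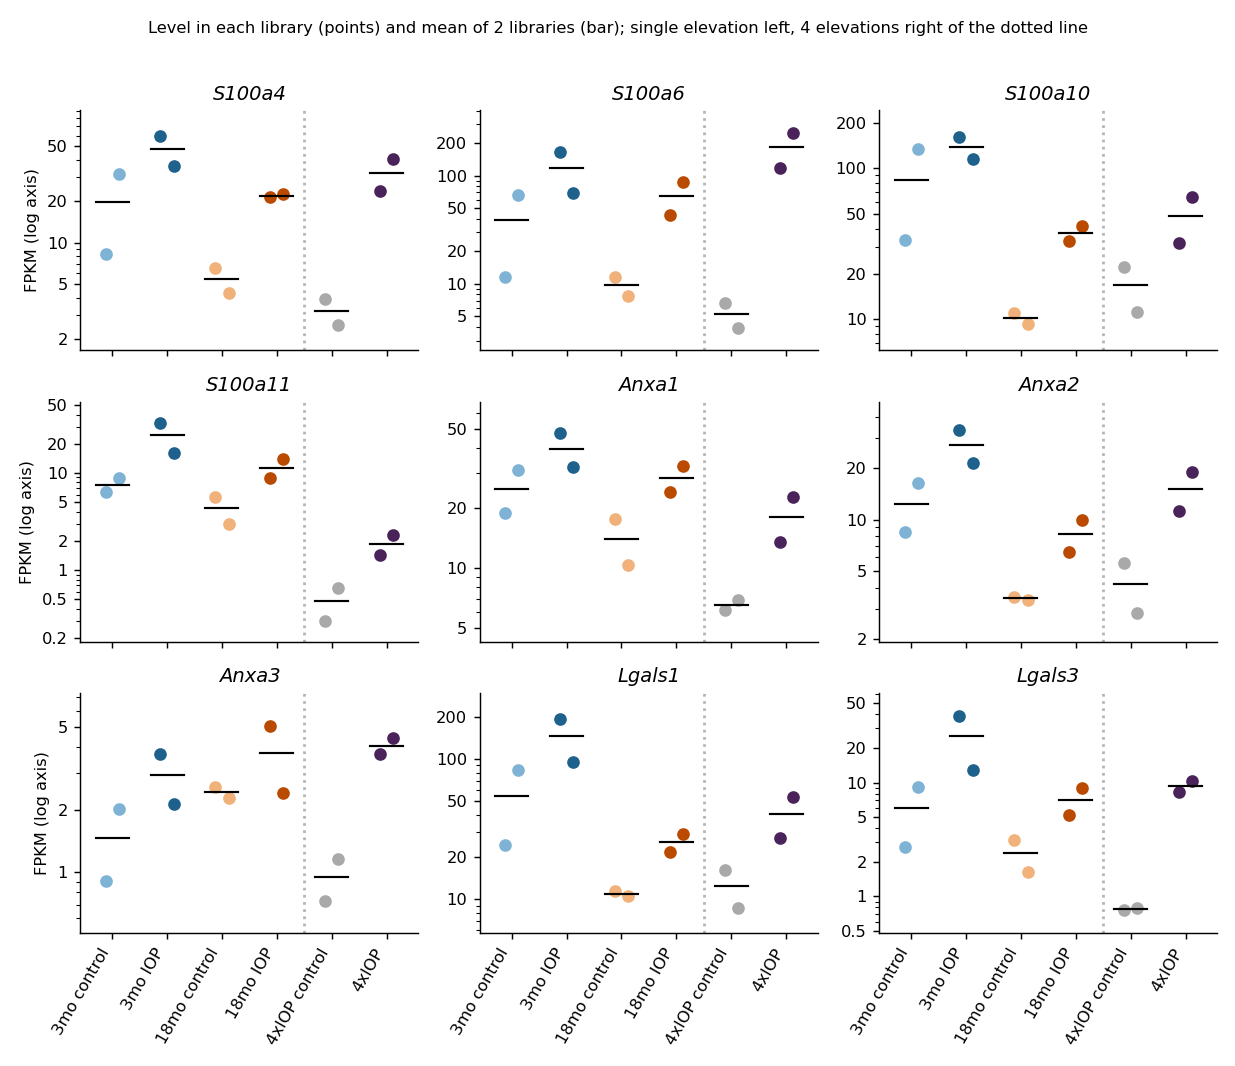
FPKM on a log axis for the 9 genes, with 1 point per library, a bar at the mean of the 2 libraries of a group, and a dotted line between the single-IOP series (left) and the repeated-IOP series (right). All 9 genes were higher in both 4xIOP libraries than in both 4xIOP control libraries, while the 2 points of the 3mo control group were far apart for several genes, such as 11.6 and 66.5 FPKM for S100a6.

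The plot of levels by library spans 0.302 FPKM (S100a11 in a 4xIOP control library) to 250.5 FPKM (S100a6 in a 4xIOP library). In the 3mo control group the highest mean was that of S100a10 (84.2 ± 71.3 FPKM, SD, n = 2), followed by Lgals1 (54.1 ± 41.9), S100a6 (39.1 ± 38.8) and Anxa1 (25 ± 8.63). These neighbours did not differ beyond their spread. Anxa3 was the lowest member there (1.46 ± 0.777 FPKM). In the 18mo control group the order began with Anxa1 (13.97 ± 5.10), Lgals1 (10.95 ± 0.645), S100a10 (10.2 ± 1.12) and S100a6 (9.67 ± 2.68), again with overlapping neighbours. Of these genes only Anxa1 has a transcript of over 1000 bases, and the part of the short-to-long ratio in these orders was not tested. Within the single-IOP series, 8 of 9 members had their highest group mean in 3mo IOP retinas and their lowest in 18mo control retinas. Anxa3 was the exception, with the highest mean in 18mo IOP and the lowest in 3mo control retinas.

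The comparison of 4xIOP with 4xIOP control addresses what 4 mild pressure elevations leave in the retina of a young animal. Apart from S100a11, which passed the filter on low values only through its 4xIOP libraries and is described by its levels, the members rose, with log2 fold changes from 1.35 (Anxa1) to 4.93 (S100a6), while the median over all 13718 tested genes was 0.10. A gene was called where its adjusted p was at most 0.05 and it changed by 1 or more on the log2 scale, and 5.45% of all tested genes were called higher and 0.693% lower (748 and 95 genes, or 500 and 142 with quantile normalization). In each of these 8 members both 4xIOP libraries were above both controls, which was so for 27.7% of tested genes.

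Of the 4 S100 members, S100a6 (calcyclin, a binding partner of the ubiquitin-ligase adaptor Cacybp) changed most. It was 6.69 and 3.90 FPKM in the 4xIOP control libraries and 117 and 250.5 FPKM in the 4xIOP libraries. The lower 4xIOP library was thus far above the higher control, and the ratio of the means was 34.7 (log2 fold change 4.93, SE 0.36, adjusted p = 1.76e-06). S100a4, known for binding non-muscle myosin and for its expression in macrophages and fibroblasts, was 3.92 and 2.54 FPKM in controls and 24.0 and 40.8 FPKM after 4xIOP. Its rise was 10.03-fold by the means (log2 fold change 3.12, SE 0.28, adjusted p = 9.68e-06). S100a10, the partner of Anxa2, was 22.3 and 11.3 FPKM in controls and 31.8 and 64.8 FPKM after 4xIOP. The gap between the groups was narrower here, with a log2 fold change of 1.49 (SE 0.37, adjusted p = 0.0252). This call was lost under 6 of 16 alternative settings, for example with the length trend removed (1.17, adjusted p = 0.0511).

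S100a11 was the lowest member of this series, at 0.302 and 0.663 FPKM in controls and 1.43 and 2.28 FPKM after 4xIOP. The control values rest on 6 and 14 tags, and their mean of 0.48 FPKM is under the 0.5 FPKM required for testing, so S100a11 was tested only through its 4xIOP libraries and that test is not read here. Between 60.8% and 71.0% of tag counts from 1 to 50 were even in the libraries, so a tag may not be an independent molecule. In the fit with no filter on low values S100a11 was not called (adjusted p = 0.0863), nor in the fit of the recovered tags with voom (adjusted p = 0.118). In the single-IOP series, normalized apart, S100a11 was between 3.00 and 32.9 FPKM, above every library of the repeated-IOP series.

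The annexins rose by similar amounts. Anxa2, the membrane partner of S100a10, was 5.53 and 2.83 FPKM in controls and 11.2 and 18.9 FPKM after 4xIOP (log2 fold change 1.75, SE 0.30, adjusted p = 0.00209). Anxa1, an inhibitor of leukocyte recruitment that acts through formyl peptide receptors, was 6.14 and 6.93 FPKM in controls and 13.4 and 22.6 FPKM after 4xIOP (1.35, SE 0.26, adjusted p = 0.00449). The calls of these genes were each lost under 3 of 16 alternatives. Anxa3 was 0.731 and 1.17 FPKM in controls and 3.71 and 4.41 FPKM after 4xIOP, with tight groups and a log2 fold change of 1.67 (SE 0.22, adjusted p = 0.000224).

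Of the galectins, Lgals3, a product of activated macrophages and microglia, went from 0.752 and 0.793 FPKM to 8.33 and 10.4 FPKM. With such close replicates it had the smallest adjusted p of the 9 genes (7.93e-07), a log2 fold change of 2.95 (SE 0.20) and a 12.1-fold ratio of means. Lgals1, a widely expressed galectin of glia, vessels and stroma, was 16.1 and 8.69 FPKM in controls and 27.2 and 54.0 FPKM after 4xIOP (1.65, SE 0.35, adjusted p = 0.0091). The Lgals1 call was lost under 3 of 16 alternatives, whereas those of S100a4, S100a6, Anxa3 and Lgals3 held under all 16. Leaving out 4xIOP replicate 2, the higher 4xIOP library for all 9 members, left 4 members called: S100a4, S100a6, Anxa3 and Lgals3. Over all genes 558 were then called higher, compared with 748.

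**Figure D2:**
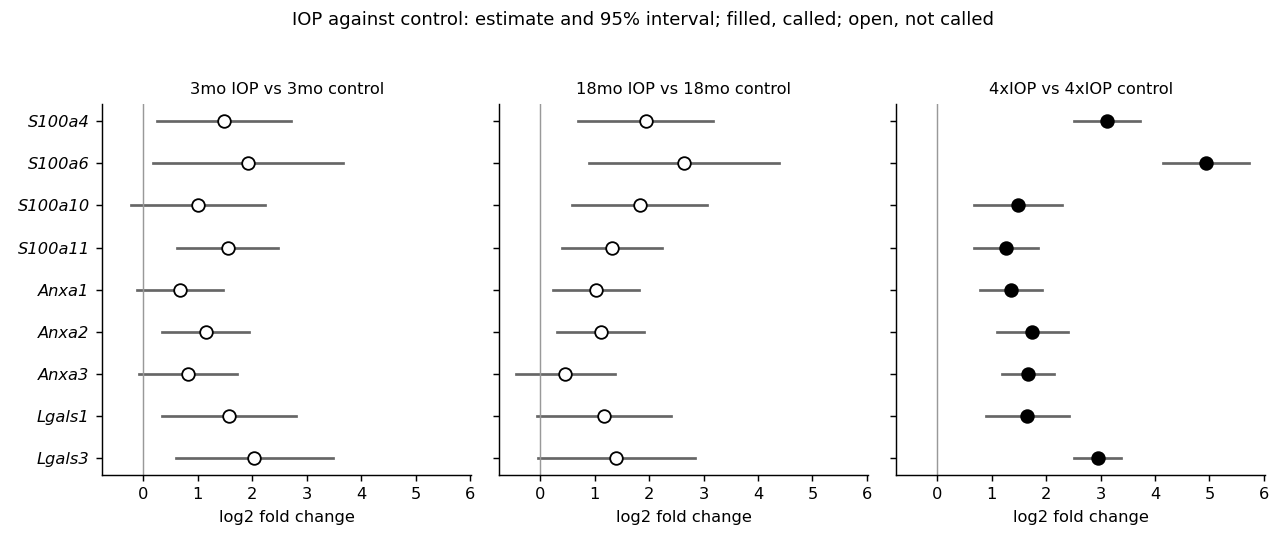
Log2 fold change of IOP against control on a shared axis (points) with its 95% confidence interval (lines) for the 9 genes in the 3 IOP comparisons, filled where the gene was called and open where it was not. All points lie above 0, and the filled points are all in the 4xIOP panel, from 1.35 for Anxa1 to 4.93 for S100a6. The filled point of S100a11 is not read as a call, since that gene was tested only through its 4xIOP libraries.

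Markers of other cell types moved with this comparison. The summed level of 9 monocyte and other leukocyte markers was between 0.894 and 1.33 FPKM in 4xIOP control and between 123.8 and 146.4 FPKM in 4xIOP libraries. Lyz2, the lysozyme of myeloid cells, was 0.837 and 0.764 FPKM in controls and 112.7 and 107.2 FPKM after 4xIOP. The other leukocyte markers that were tested passed the filter on low values only through the 4xIOP libraries, so no count of them is given, and Cd3e of T cells was at 0 in both controls. The sum of 5 astrocyte markers went from between 7.18 and 8.42 to between 52.3 and 58.6 FPKM, with Gfap at 2.14 and 2.69 FPKM in controls and 46.1 and 32.7 FPKM after 4xIOP. The sum of 7 microglia markers went from between 12.7 and 13.2 to between 80.2 and 83.5 FPKM. Lens markers went from between 0.702 and 4.46 to between 42.1 and 81.3 FPKM, with Mip at 0 in both controls. Fibroblast and stromal markers were between 2.77 and 2.95 FPKM in controls and between 6.61 and 11.8 FPKM after 4xIOP, with Lum at 0 in both 4xIOP libraries. Pigment epithelium markers went the other way, from between 25.4 and 35.1 to between 2.61 and 5.70 FPKM. Pericyte and smooth muscle markers were between 13.4 and 15.8 FPKM in controls and between 18.8 and 19.6 FPKM after 4xIOP. The summed Müller glia markers were between 832 and 885 FPKM in controls and between 546 and 639 FPKM after 4xIOP, and 0 of 8 were called in limma, where 5 of 8 had a positive log2 fold change. The rod markers were lower in 4xIOP (between 3084 and 4446 FPKM) than in controls (between 7748 and 8561 FPKM), and 0 of 6 rod markers were called. The part of any of these in the values of the 9 genes was not tested.

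**Figure D3:**
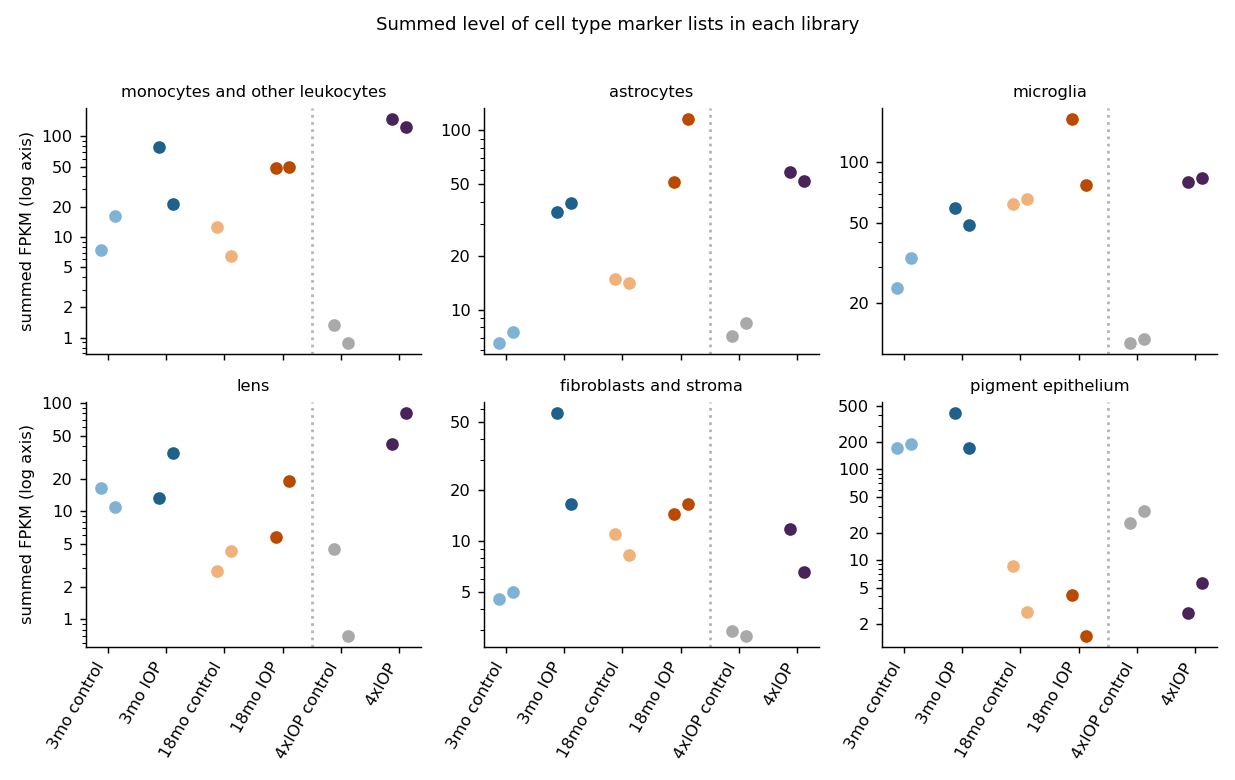
Summed FPKM on a log axis of 6 lists of cell type markers, with 1 point per library and the same groups and dotted line as for the genes. Leukocyte, astrocyte and microglia markers were higher in both IOP libraries than in both controls in each IOP comparison, and pigment epithelium markers were lower in all 18mo libraries than in the 3mo libraries of the single-IOP series.

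The other genes of these families were taken from a list of relatives. Of 12 other S100 genes, 6 were tested in the repeated-IOP series, 2 of them (S100a8 and S100a9) only because of their level after 4xIOP. S100a8 and S100a9, the calgranulin subunits carried by neutrophils and monocytes, were at 2 and 0 and at 2 and 2 tags in the control libraries, so no fold is given. After 4xIOP, S100a8 was 20.2 and 26.5 FPKM and S100a9 was 12.1 and 15.96 FPKM. S100a13, a partner in the unconventional secretion of Fgf1, was 2.23 and 2.97 FPKM in controls and 8.87 and 25.8 FPKM after 4xIOP (log2 fold change 2.35, SE 0.36, adjusted p = 0.000859). S100a16 (1.88, SE 0.27, adjusted p = 0.0005) and S100a1 (1.45, SE 0.31, adjusted p = 0.00972) were also called, where 5.45% of all tested genes were called higher, and S100b, the S100 protein of glia, was not (-0.04, SE 0.30, adjusted p = 0.986).

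The relatives of the annexins and galectins were taken from the same list. Of 9 other annexins 4 were tested and Anxa4 was called higher (1.3, SE 0.21, adjusted p = 0.00119). Anxa5, the most abundant of them and the protein used to label phosphatidylserine, missed the fold threshold (0.99, SE 0.27, adjusted p = 0.0413), and Anxa6 was at 0.85 (adjusted p = 0.0614). Of 8 other galectins 5 were tested and Lgals9, a ligand of Tim-3, was called higher, from 0.441 and 0.574 FPKM to 3.79 and 3.55 FPKM (2.05, SE 0.21, adjusted p = 2.45e-05). Lgalsl (0.36, adjusted p = 0.759) and Lgals8 (0.33, adjusted p = 0.617) were not called. Lgals4 and Lgals6 are near-identical copies whose tags may be divided uncertainly, and neither was called in this comparison.

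The comparison of 3mo IOP with 3mo control asks what 1 elevation leaves in the retina on day 2. All 9 members had positive log2 fold changes (median 1.48, against 0.13 over all tested genes), yet 0 of 9 were called in limma. Among 13731 tested genes limma called 0.568% higher and 0.00728% lower. With voom 0 of 9 were called, where 3 of all tested genes were called higher and 0 lower. Without adjustment, 6 of 9 members had p under 0.05, compared with 8.51% of all tested genes. In 8 of 9 members both 3mo IOP libraries were above both controls, which held for 28.6% of tested genes. With 2 libraries per group, the interval of each change was wide.

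S100a11 came nearest to the threshold at 3 months, at 6.42 and 8.81 FPKM in 3mo control and 32.9 and 16.02 FPKM in 3mo IOP libraries (log2 fold change 1.55, SE 0.40, adjusted p = 0.189). Lgals3 was 2.74 and 9.23 FPKM in controls and 38.7 and 12.99 FPKM after IOP (2.03, SE 0.63, adjusted p = 0.304), and its log2 fold change lay between 1.24 and 2.83 with 1 library left out. S100a6 was 11.6 and 66.5 FPKM in controls and 165.9 and 69.4 FPKM after IOP (1.92, SE 0.76, adjusted p = 0.503). For S100a6 the lower IOP library was thus only just above the higher control.

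S100a4 was 8.29 and 31.6 FPKM in 3mo control and 59.95 and 35.9 FPKM in 3mo IOP libraries (1.48, SE 0.54, adjusted p = 0.427). Lgals1 was 24.5 and 83.7 FPKM in controls and 194.4 and 95.6 FPKM after IOP (1.58, SE 0.54, adjusted p = 0.38). S100a10 was the member whose groups overlapped, at 33.8 and 134.6 FPKM in controls and 161.4 and 114.7 FPKM after IOP (1.01, SE 0.54, adjusted p = 0.735). The control library that is high for each of these genes is 3mo control replicate 2, which also has the highest short-to-long ratio, 8.14. Its corneal and conjunctival epithelium markers summed to 46.9 FPKM, against 5.33 FPKM in replicate 1, and its blood markers to 261.8 FPKM, against 19.5 FPKM. The part of these in the values was not tested. Without 3mo control replicate 2, which leaves 1 control library, the log2 fold changes were 3.15 for S100a6, 2.45 for Lgals1, 2.42 for S100a4 and 1.99 for S100a10. Without 3mo control replicate 1 instead, they were 0.69 for S100a6, 0.70 for Lgals1, 0.55 for S100a4 and 0.016 for S100a10. The size of these values thus rests on which control library is kept.

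The annexins had log2 fold changes from 0.67 to 1.15 at 3 months, and 0 of 3 were called in limma. Anxa2 was 8.42 and 16.3 FPKM in controls and 33.3 and 21.4 FPKM after IOP (1.15, SE 0.35, adjusted p = 0.283). Anxa3 was 0.913 and 2.01 FPKM in controls and 3.72 and 2.12 FPKM after IOP (0.82, SE 0.39, adjusted p = 0.663). Anxa1 was 18.9 and 31.1 FPKM in controls and 47.4 and 32.1 FPKM after IOP (0.67, SE 0.34, adjusted p = 0.7). In both Anxa1 and Anxa3 the groups were separated by a small gap only. With 1 library left out the values lay between 0.69 and 1.61 for Anxa2, between 0.41 and 1.24 for Anxa3 and between 0.32 and 1.03 for Anxa1.

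At 18 months all 9 members were again positive (median log2 fold change 1.32, against 0.09 over all tested genes). In limma 0 of 9 were called, where 0.117% of all tested genes were called higher and 0.00728% lower. With voom 0 of all 13731 tested genes were called, so its count of members carries no information on them. Without adjustment 6 of 9 members had p under 0.05 in limma, compared with 9.45% of all tested genes. In 8 of 9 members both 18mo IOP libraries were above both controls, which held for 36.5% of tested genes. S100a6 was 11.6 and 7.78 FPKM in 18mo control and 43.6 and 87.3 FPKM in 18mo IOP libraries (2.64, SE 0.76, adjusted p = 0.227). S100a4 was 6.60 and 4.33 FPKM in controls and 21.4 and 22.5 FPKM after IOP (1.94, SE 0.54, adjusted p = 0.214). The groups stood well apart for both of these genes.

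S100a10 was 10.97 and 9.38 FPKM in 18mo control and 33.3 and 41.5 FPKM in 18mo IOP libraries (1.82, SE 0.54, adjusted p = 0.238). Its partner Anxa2 was 3.51 and 3.40 FPKM in controls and 6.42 and 9.98 FPKM after IOP (1.11, SE 0.35, adjusted p = 0.268). S100a11 was 5.67 and 3.00 FPKM in controls and 8.83 and 13.9 FPKM after IOP (1.32, SE 0.40, adjusted p = 0.251). Its partner Anxa1 was also higher in both IOP libraries, with 17.6 and 10.4 FPKM in controls and 23.9 and 32.7 FPKM after IOP (1.02, SE 0.34, adjusted p = 0.311).

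Lgals3 was 3.11 and 1.65 FPKM in 18mo control and 5.15 and 9.07 FPKM in 18mo IOP libraries (1.40, SE 0.63, adjusted p = 0.556). Lgals1 was 11.4 and 10.5 FPKM in controls and 21.8 and 29.1 FPKM after IOP (1.17, SE 0.54, adjusted p = 0.576). Anxa3 was the member whose groups overlapped at 18 months, at 2.57 and 2.28 FPKM in controls and 5.08 and 2.40 FPKM after IOP (0.46, SE 0.39, adjusted p = 0.962). Without 18mo IOP replicate 1 its log2 fold change was -0.01.

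In the single-IOP series the summed markers of several cell types moved with these values too, those of leukocytes among them. Their sum was between 7.35 and 15.97 FPKM in 3mo control, between 21.3 and 78.1 FPKM in 3mo IOP, between 6.48 and 12.6 FPKM in 18mo control and 48.9 FPKM in both 18mo IOP libraries. The astrocyte sum was between 6.58 and 7.52 FPKM in 3mo control, between 35.1 and 39.3 FPKM in 3mo IOP, between 14.1 and 15.0 FPKM in 18mo control and between 51.5 and 114.9 FPKM in 18mo IOP. Microglia markers went from between 23.8 and 33.4 to between 48.9 and 59.1 FPKM at 3 months and from between 61.9 and 66.1 to between 76.8 and 163.4 FPKM at 18 months. Fibroblast and stromal markers were between 4.56 and 5.02 FPKM in 3mo control, between 16.4 and 56.7 FPKM in 3mo IOP, between 8.27 and 11.1 FPKM in 18mo control and between 14.4 and 16.5 FPKM in 18mo IOP. Pericyte and smooth muscle markers were between 10.4 and 11.5 FPKM in 3mo control and between 43.9 and 98.5 FPKM in 3mo IOP, and between 37.4 and 53.9 FPKM at 18 months. Rod markers were lower after IOP at both ages, between 14451 and 15522 FPKM against between 15976 and 16830 FPKM at 3 months, and between 9350 and 10623 FPKM against between 13403 and 15263 FPKM at 18 months. At 18 months lens markers were between 2.82 and 4.32 FPKM in controls and between 5.83 and 19.1 FPKM after IOP, endothelial markers between 33.7 and 35.6 FPKM and between 36.0 and 45.8 FPKM, and blood markers between 166 and 425.6 FPKM and between 44.3 and 54.3 FPKM. Of the pigment epithelium markers, Tyrp1 was 11.8 and 3.11 FPKM in 3mo control and 73.8 and 32.2 FPKM in 3mo IOP. Mlana was 11.4 and 4.57 FPKM in 3mo control and 124.4 and 69.0 FPKM in 3mo IOP. They were the 2 of 5 tested with a positive log2 fold change at 3 months, and the median of the 5 was -0.34. The part of any of these markers in the values of the 9 genes was not tested.

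Whether the response to IOP differed with age was asked by the interaction of IOP with age. The test called 0 of 13731 genes (0%), with 1.59% of genes and 0 members at an unadjusted p under 0.05 in limma. The difference in log2 response, 18mo minus 3mo, ranged over the members from -0.63 for Lgals3 (95% confidence interval -2.67 to 1.40) to 0.82 for S100a10 (-0.93 to 2.57). For Anxa2 it was -0.04 (-1.17 to 1.09). These intervals cover differences of more than 1 on the log2 scale in either direction for 6 of 9 members, so the data do not show that the ages respond alike.

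The comparison of 18mo with 3mo control retinas asks what changes with age in untreated eyes. It shares its control libraries with the IOP comparisons above. Of 9 members 4 were called lower, S100a10, Lgals1, Anxa2 and S100a4, and 0 higher. Over all tested genes 11.6% were called lower and 11.6% higher (1590 and 1595 genes, or 1959 and 1056 with size factors). In 7 of 9 members both 18mo control libraries were below both 3mo control libraries, against 32.8% of tested genes. The median log2 fold change of the members was -1.51, against 0.16 over all tested genes, and with the length trend removed it was -0.60.

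S100a10 fell most, from 33.8 and 134.6 FPKM in 3mo control to 10.97 and 9.38 FPKM in 18mo control libraries (log2 fold change -2.68, SE 0.54, adjusted p = 0.00845). Its partner Anxa2 fell from 8.42 and 16.3 to 3.51 and 3.40 FPKM (-1.63, SE 0.35, adjusted p = 0.00975). Lgals1 fell from 24.5 and 83.7 to 11.4 and 10.5 FPKM (-2.005, SE 0.54, adjusted p = 0.0191). These calls held with the length trend removed, at -1.73 (adjusted p = 0.00469) for S100a10, -1.21 (adjusted p = 0.00641) for Anxa2 and -1.14 (adjusted p = 0.0258) for Lgals1. Without 3mo control replicate 2, the library with the high short-to-long ratio, S100a10 (-1.69, adjusted p = 0.00704) and Anxa2 (-1.17, adjusted p = 0.0402) were still called and Lgals1 was not (-1.13, adjusted p = 0.0761), while calls over all genes fell to 775 lower and 745 higher. Without 18mo control replicate 2, 0 members were called, and without 18mo control replicate 1, 1 member was, S100a10. Over all genes the calls then fell from 1595 higher and 1590 lower to 607 and 564 without replicate 2 and 924 and 789 without replicate 1. The log2 fold changes were then -2.57 and -2.78 for S100a10 and -1.95 and -2.06 for Lgals1.

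S100a4 stood at 8.29 and 31.6 FPKM in 3mo control and 6.60 and 4.33 FPKM in 18mo control libraries. Its call was marginal (-1.52, SE 0.54, adjusted p = 0.0484) and was lost under 10 of 17 alternatives, including the removal of the length trend (-0.52, adjusted p = 0.217). The values of S100a6 (-1.51, adjusted p = 0.131), Lgals3 (-1.01, adjusted p = 0.212), Anxa1 (-0.82, adjusted p = 0.0793) and S100a11 (-0.79, adjusted p = 0.137) did not pass. These values depended on the 3mo control library kept. Without 3mo control replicate 1, S100a6 (-2.75, adjusted p = 0.00865) and Anxa1 (-1.17, adjusted p = 0.035) were called and Lgals3 was at -1.80 (adjusted p = 0.0566), while calls over all genes went from 1590 lower and 1595 higher to 2091 and 2629, whereas without replicate 2 S100a6 was at -0.28 and Lgals3 at -0.22. With the length trend removed S100a6 was at -0.60 and S100a11 at 0.21. Anxa3 was the only member with a positive value, from 0.913 and 2.01 to 2.57 and 2.28 FPKM (0.63, SE 0.39, adjusted p = 0.213), and its 18mo control libraries were both above the 3mo controls.

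**Figure D4:**
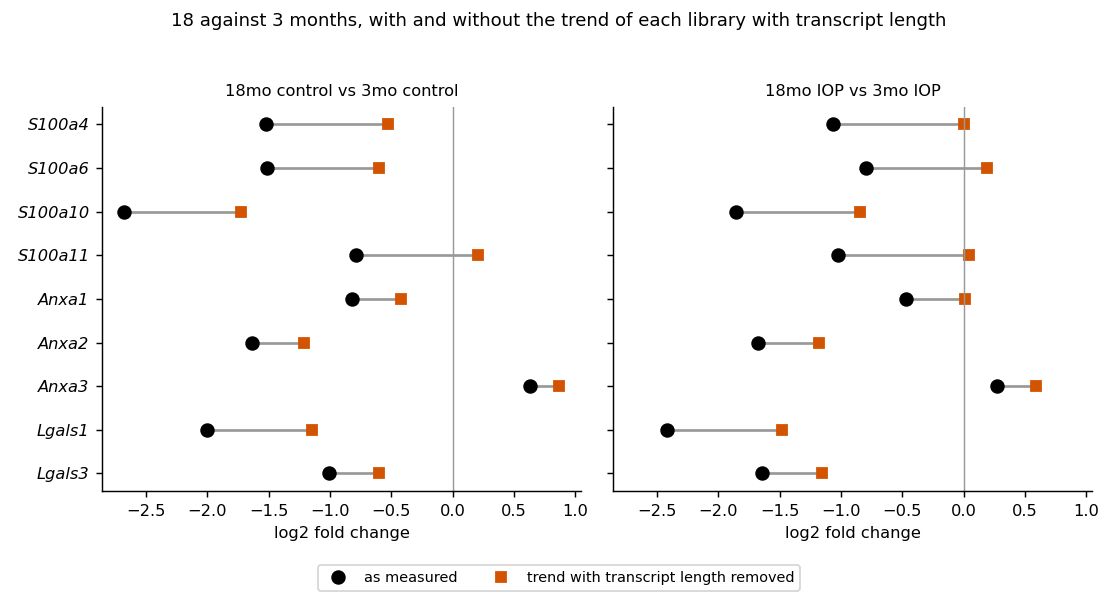
Log2 fold change of 18mo against 3mo retinas for the 9 genes in control eyes (left) and IOP eyes (right), on a shared axis, as measured (black circles) and after the trend of each library with transcript length was removed (orange squares). Removing the trend moved all 9 genes upward in both panels, to 0.21 for S100a11 in control eyes, and left S100a4, S100a10, Anxa2, Lgals1 and Lgals3 below 0 in both, S100a4 only just so in IOP eyes.

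Between the IOP-treated retinas of both ages, 3 of 9 members were called lower at 18 months and 0 higher, while 11.6% of tested genes were called lower and 10.2% higher. Lgals1 fell by 2.41 on the log2 scale (SE 0.54, adjusted p = 0.0123), S100a10 fell by 1.86 (SE 0.54, adjusted p = 0.0269) and Anxa2 fell by 1.67 (SE 0.35, adjusted p = 0.0102). In 6 of 9 members both 18mo IOP libraries were below both 3mo IOP libraries, against 34.5% of tested genes, and the members' median was -1.06, against 0.09 over all tested genes. Once the length trend was removed, the middle value of the 9 members was -0.00095, that of S100a4. With the length trend removed Lgals1 (-1.48, adjusted p = 0.0116) and Anxa2 (-1.18, adjusted p = 0.00853) were called and S100a10 was not (-0.84, adjusted p = 0.0657). Without 3mo IOP replicate 1, the highest library for 8 of 9 members in this pair of groups, 0 members were called, with Lgals1 at -1.90, S100a10 at -1.61 and Anxa2 at -1.36, and without 18mo IOP replicate 1, 1 member was, Anxa2. Over all genes, 255 were called lower without the former and 1433 without the latter, compared with 1593. The plot of age changes shows how far the values shift with the length trend.

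Pigment epithelium markers were between 173 and 420 FPKM in the 4 single-IOP libraries of 3mo animals and between 1.47 and 8.70 FPKM in the 4 libraries of 18mo animals. Lens markers were also lower with age in control eyes, between 2.82 and 4.32 FPKM against between 10.97 and 16.4 FPKM, and corneal and conjunctival epithelium markers in IOP eyes, between 0.109 and 0.176 FPKM against between 3.53 and 10.5 FPKM. Müller glia markers moved the other way, between 514 and 644 FPKM at 3 months and between 1124 and 1649 FPKM at 18 months, and endothelial markers likewise, between 3.24 and 5.14 FPKM at 3 months and between 33.7 and 45.8 FPKM at 18 months. Retinal ganglion cell markers were between 309 and 623 FPKM at 3 months and between 30.3 and 83.5 FPKM at 18 months, with 5 of 6 called lower in control eyes and 6 of 6 in IOP eyes, where 11.6% of all tested genes were called lower in each comparison. By the ranges given above, the rod sum was lower at 18 months, and the astrocyte and microglia sums higher, in control and in IOP eyes. The fibroblast and pericyte sums were higher at 18 months in control eyes. Of 5 tested fibroblast markers only 1 had a positive log2 fold change there. It was Fn1, at 1.15 and 0.720 FPKM in 3mo control and 4.88 and 6.57 FPKM in 18mo control libraries. The part of any of these in the age values of the 9 genes was not tested.

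Among relatives, S100a1 was called lower with age in control eyes (-1.59, SE 0.49, adjusted p = 0.0304) and in IOP eyes (-1.61, SE 0.49, adjusted p = 0.0315), and S100b in control eyes (-1.26, SE 0.32, adjusted p = 0.016). Of 4 tested annexins 0 were called in either age comparison by limma. Anxa6 alone had an unadjusted p under 0.05, in both, where 55.1% of all tested genes did in control eyes and 53% in IOP eyes. It stayed below the fold threshold at 0.57 (adjusted p = 0.0317) in control eyes and 0.50 (adjusted p = 0.0494) in IOP eyes. Lgals4 (1.41, adjusted p = 0.00535) and its near-identical copy Lgals6 (1.45, adjusted p = 0.00484) were called higher with age in control eyes and also in IOP eyes.

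The members other than Anxa3 varied together over the 8 single-IOP libraries. Pearson's r of log2(FPKM + 0.5) had a median of 0.91 over the 36 pairs of members. It lay between 0.06 and 0.43 in the pairs with Anxa3 and between 0.83 and 0.99 in the others. The libraries share their short-to-long ratio across genes: the r of a member's level with the log2 of that ratio was 0.90 for S100a10 and Lgals1, 0.87 for Anxa2, 0.73 for S100a4 and between -0.16 (Anxa3) and 0.70 (Lgals3) for the others. The genes outside the set with the most similar pattern were Fxyd1 for S100a6 (r = 0.993), 2310001H17Rik for S100a4 (0.992), Nqo1 for S100a10 (0.994) and Tst for S100a11 (0.996). For the annexins they were Arpc5 for Anxa1 (0.990), Tprgl for Anxa2 (0.994) and Tspan3 for Anxa3 (0.974). For the galectins they were Ppp1ca for Lgals1 (0.997) and C1qbp for Lgals3 (0.987). These values describe likeness over 8 libraries from 4 groups and were not tested.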

How the data were processed

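Strand-specific poly(A) libraries from TRIzol-extracted retinas were sequenced on a NovaSeq instrument. The authors aligned reads to mm10 with STAR (2.7.8a per the submitters' processing notes), counted uniquely mapped tags in exons with HOMER, 1 transcript per locus, and used DESeq2 for their own tests. The deposited values are FPKM, in 2 tables normalized separately. Library tags were recovered from FPKM times transcript length, and 100% of the values checked were whole within 0.1 tag. The 95% confidence intervals are those of the fit and rest on the spread between libraries. The limit of measurement was taken as 3 tags and covers counting error only. All 0 columns outside the samples were unused.

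A gene was tested where its mean in a table reached 0.5 FPKM, which left 13731 and 13718 of 25124. All 9 members passed, S100a11 in the repeated-IOP table through the 4xIOP libraries, as its mean in the controls was 0.48 FPKM. Values of log2(FPKM + 0.5) were fitted with limma 3.58.1 (lmFit, eBayes with a trend, two-sided) in R 4.3.3. The single-IOP table (8 libraries, 4 groups) was fitted together (4 residual degrees of freedom, prior 4.12) and the 4 libraries of the other table alone (2, prior 10.6). Fold changes are on the log2(FPKM + 0.5) scale, which understates those of low genes, whereas ratios of means are on FPKM. Calls needed an adjusted p (Benjamini-Hochberg over all tested genes) of at most 0.05 and a change of 1 or more on the log2 scale in either direction, except that the interaction needed the p only.

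The members and lists were chosen with earlier results of these data known. Named genes are the members, relatives and partners that were called or are most abundant, and the gene nearest each member in pattern. Alternatives were pseudocounts of 0.1 and 1, no filter, a filter at 2 FPKM, quantile normalization, size factors by median of ratios, removal of the length trend (spline, 5 degrees of freedom), voom on recovered tags, eBayes without a trend, a replicate block, the adjusted p alone and each library left out. On simulated data with 200 genes changed by 2 on the log2 scale, 68.2% (4xIOP) to 83.3% (18mo IOP) were recovered. Same-numbered libraries deviated from their group means with r of -0.28 (3mo), -0.53 (18mo) and -0.29 (4xIOP). After removal of the length trend r was -0.055 (3mo), -0.524 (18mo) and -0.275 (4xIOP). None of these was positive, so the numbers were not taken to pair libraries. Some genes of the lists are not reported here by name. Promoters are from RefSeq (GRCm38.p6).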

Additional observations from a re-analysis of the deposited data

How the results depend on the processing

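The 9 calls after 4xIOP, which count S100a11 although it was tested only through its 4xIOP libraries, became 4 with no filter on low values, 7 with the length trend removed, and between 4 and 9 with 1 library left out, while calls of higher genes over the whole table went from 748 to 634 of 19593, to 567, and to between 558 and 715. The 4 calls in 18mo against 3mo control ranged from 0 to 6 with 1 library left out, and the 3 calls in 18mo against 3mo IOP from 0 to 2. The latter became 5 with voom, while calls of lower genes over the whole table went from 1593 to 2023. In 3mo IOP the log2 fold changes of the members lay between 0.016 (S100a10) and 3.15 (S100a6) with 1 library left out. In 18mo IOP they lay between -0.0089 (Anxa3) and 3.13 (S100a6) with 1 library left out. Where that leaves 1 library in a group, it is assumed to vary like the others. Over all genes, the calls in 3mo IOP went from 78 higher and 1 lower to 10 and 0 with size factors and 3 and 0 with voom, and those in 18mo IOP from 16 and 1 to 0 and 0 with either. The cause of these shifts was not tested.

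With a replicate block the member counts were 3 (18mo against 3mo control), 3 (18mo against 3mo IOP), 0 (3mo IOP), 0 (18mo IOP), 0 (interaction) and 9 (4xIOP), so the block changed no member count by over 1.5 times. Calls of lower genes over the whole table then went to 1388 in 18mo against 3mo control (from 1590) and 1330 in 18mo against 3mo IOP (from 1593). Calls of higher genes went to 20 in 3mo IOP (from 78), 0 in 18mo IOP (from 16) and 767 in 4xIOP (from 748). The interaction called 0 genes. With the replicate numbers crossed, an alternative chosen after seeing the data, the counts were 6 for 18mo against 3mo IOP, 6 for 3mo IOP and 8 for 18mo IOP, while calls of higher genes over the whole table went to 298 in 3mo IOP (from 78) and 298 in 18mo IOP (from 16), and calls of lower genes in 18mo against 3mo IOP to 1706 (from 1593).

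Directions turned in few places, none of them called. With the length trend removed, S100a11 was 0.21 in 18mo against 3mo control, and in 18mo against 3mo IOP S100a6 was 0.19, S100a11 0.042 and Anxa1 0.0087. The interaction of Anxa2 was 0.013 with a pseudocount of 0.1, 0.036 with size factors, 0.053 with quantile normalization, 0.035 with the length trend removed and 0.11 with voom. With 1 library left out, Anxa3 lay between -0.20 and 0.74 in 18mo against 3mo IOP and between -0.0089 and 0.93 in 18mo IOP. The interaction lay between -0.48 and 1.39 for S100a4, -0.51 and 1.95 for S100a6, -0.17 and 1.81 for S100a10, -0.74 and 0.28 for S100a11, -0.018 and 0.72 for Anxa1, -0.50 and 0.42 for Anxa2, -0.83 and 0.11 for Anxa3, -1.28 and 0.47 for Lgals1, and -1.43 and 0.16 for Lgals3.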

Other observations

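The binding partners and receptors of the 9 genes formed a list of 17, of which 12 were tested. Fpr1 and Fpr2, the formyl peptide receptors through which Anxa1 acts on leukocytes, were tested only because of their level after 4xIOP. They had at most 4 tags in a 4xIOP control library and between 28 and 147 tags in the 4xIOP libraries. Trem2, a microglial lipid receptor that binds galectin-3 and was likewise tested only through the 4xIOP libraries, was 0.580 and 0.392 FPKM in controls and 5.29 and 6.09 FPKM after 4xIOP. Lgals3bp, a secreted galectin-binding glycoprotein, was 1.94 and 2.94 FPKM in controls and 15.3 and 12.1 FPKM after 4xIOP (log2 fold change 2.29, SE 0.23, adjusted p = 2.22e-05). Myh9, the non-muscle myosin bound by S100a4, was called at 1.04 (adjusted p = 0.00871) and Ahnak, the scaffold bound by the S100a10 and Anxa2 complex, at 1.02 (adjusted p = 0.00517).

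After a single elevation at 3 months Lgals3bp was called higher (1.95, SE 0.30, adjusted p = 0.0372), while 0 members were called in limma. Plau, the urokinase activator of plasminogen, was at 2 and 4 tags in controls and at 218 and 91 tags after IOP, and its mean in the controls was under the filter on low values. At 18 months limma called 0 of 12 partners, where 0.117% of all tested genes were called higher, and 7 had an unadjusted p under 0.05, compared with 9.45% of all tested genes.

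With age in control eyes Mertk, Myh9, Trem2, Lgals3bp and Plat were called higher, where 11.6% of all tested genes were. The levels of Ager, Plau and Plaur in 3mo control were under the filter on low values, so their calls are not counted. Plat, the tissue plasminogen activator, was 1.64 and 1.40 FPKM in 3mo control and 6.45 and 5.72 FPKM in 18mo control libraries (1.70, SE 0.27, adjusted p = 0.00564). Cacybp, the S100a6-binding protein, was called lower (-1.74, SE 0.29, adjusted p = 0.00591).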
